A study of Mus musculus with 10 samples.

Results

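The genes described here are 34 mouse genes of sterol and fatty acid synthesis, listed by name: 25 form a sterol branch (the enzymes from acetyl-CoA to cholesterol and the genes that sense or carry sterols) and 9 a fatty acid branch (synthesis, desaturation and elongation). They were chosen with earlier results of these data known. They were followed in whole mouse lens on 10 Affymetrix mouse 430 2 arrays, which read each gene through sets of short probes near its 3' end. Of the 34, 33 had a probe set that names that gene alone, and each is described through the brightest such probe set by mean signal over the 10 arrays; Acat2, which makes acetoacetyl-CoA, had none and is not described further. All 33 were bright enough to be tested, among 13444 tested genes of 18193 measured.

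There were 4 groups. Lenses labelled Klf4CN (Klf4-conditional null) and wild type (WT) lenses were taken at postnatal day 56 (PN56, young adults; 2 arrays per genotype, each from lenses pooled over 3 mice) and at embryonic day 16.5 (E16.5; 3 arrays per genotype, each from lenses pooled over 5 embryos). Klf4 encodes a zinc finger transcription factor. The strain, the Cre driver and so the cells in which Klf4 was deleted are not stated in the labels. In pooled whole lens, fewer cells of a type and less RNA per cell cannot be told apart.

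The deposited signals are linear intensities scaled so that every array has the same trimmed mean of 500. Arrays of a group correlated at 0.951 or higher (Pearson, log2 signals across genes, a description). The lens character of the samples was clear from 7 fibre markers, among them the crystallins Cryaa, Cryba1 and Crygd, whose summed signal was 429200 to 434200 in PN56 Klf4CN lenses, against 586400 to 648000 in PN56 WT lenses. Very bright controls, a spike among them, were also lower on the PN56 Klf4CN arrays (given below with Scd2). Their bearing on these sums was not tested. Klf4 itself was not lower in the lenses labelled Klf4CN. Its signals were 731.8 and 702.2 in PN56 Klf4CN lenses, against 156.5 and 213.5 in PN56 WT lenses, a log2 difference of 1.88 ± 0.34 (SE; limma adjusted p = 0.00423), and at E16.5 the log2 difference was 0.59 ± 0.28 (adjusted p = 0.9997). No label tells if this probe set falls within the deleted sequence, and one that falls outside checks nothing, so each direction below is that of the lenses labelled Klf4CN.

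Cholesterol is built from acetyl-CoA through mevalonate and isoprenoid units to squalene, which is closed into lanosterol and then trimmed, reduced and rearranged into cholesterol. Many genes of this route are switched on together by the SREBP transcription factors, which SCAP escorts out of the endoplasmic reticulum when sterols are scarce and the INSIG proteins hold back when sterols are plentiful. The lens fibre membrane is unusually rich in cholesterol, much of which the lens makes itself, and in the Shumiya rat changes in the Lss and Fdft1 genes give cataract. Fatty acid synthesis starts from cytosolic acetyl-CoA, makes palmitate, and then lengthens and desaturates it for membrane lipids.

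The comparison at PN56 asks what differs between adult lenses labelled Klf4CN and WT lenses. In the sterol branch 12 of the 24 measured members were higher in Klf4CN lenses, 2 were lower and 10 did not pass the test (limma on log2(signal + 16), Benjamini-Hochberg adjusted p under 0.05 over all tested genes; all fold changes here are on that scale). Over all tested genes 13.1% were called in this comparison, 6.08% higher and 6.99% lower. The median log2 difference of the 24 was 0.54, against -0.06 over all tested genes. As the members were chosen with earlier results known, these values describe the set and are no independent test of it. The 12 higher members ran from Hmgcs1 at the head of the mevalonate pathway, through Idi1, the largest difference of the 24, and Sqle, to Sc5d among the late steps, and the 2 lower ones were Ggps1 and Dhcr7. In the fatty acid branch 1 of 9 members, Scd1, was higher, and the median log2 difference was -0.07. The 2 groups did not overlap for 19 of 24 sterol and 6 of 9 fatty acid members, where 50.7% of all tested genes did not overlap.

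**Figure D1:**
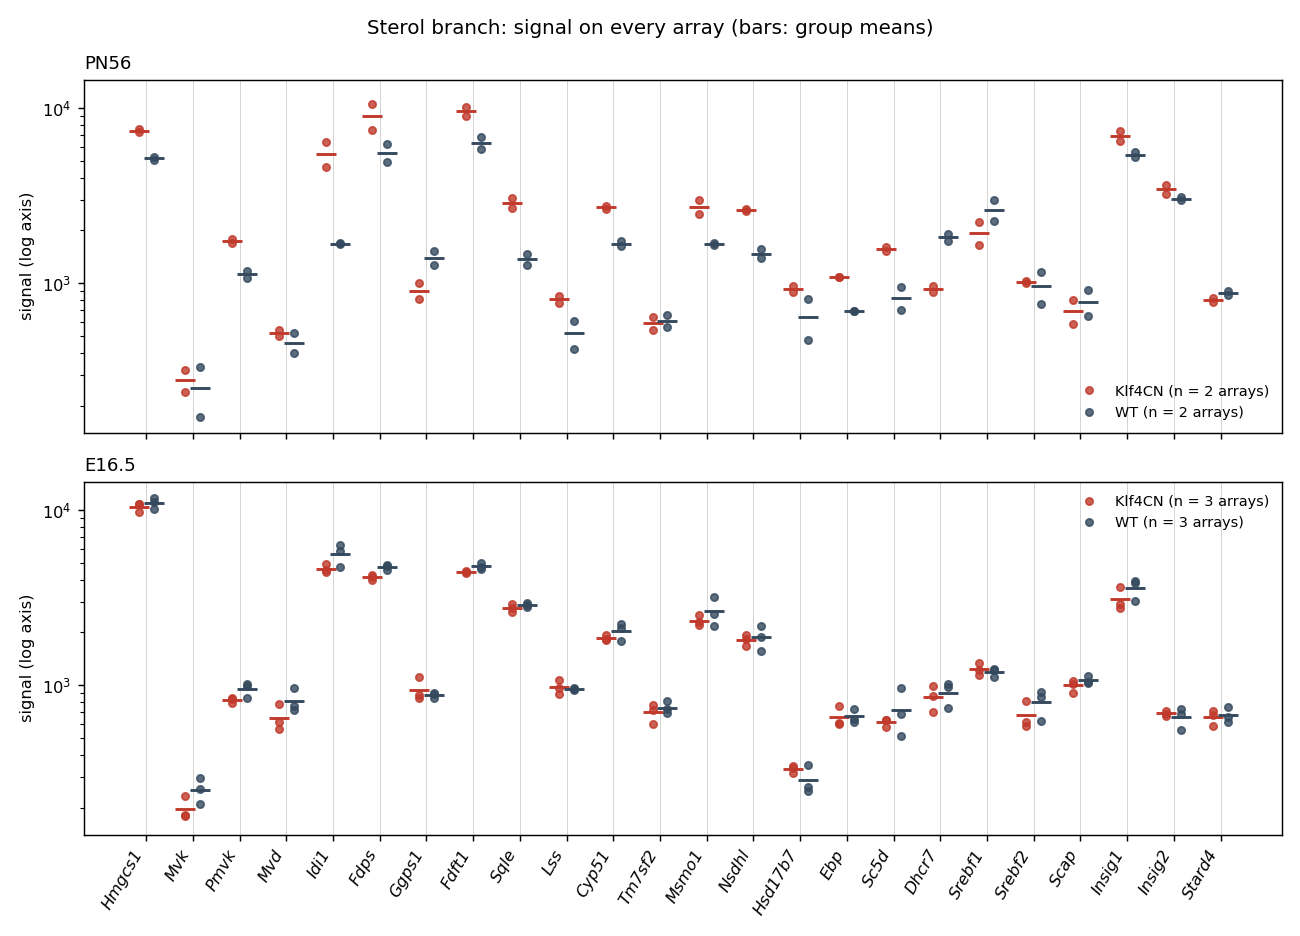
Signal of the 24 measured sterol branch members on every array (log axis), with Klf4CN to the left of WT for each gene, PN56 above and E16.5 below; points are arrays and bars are group means. At PN56 the Idi1 points of Klf4CN lenses (4573 and 6366) lie well above those of WT lenses (1665 and 1686), and at E16.5 they lie at 4445 to 4875, against 4739.9 to 6253.

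Among the 7 measured members of the mevalonate pathway, 4 were higher, 1 was lower and 2 did not pass. Idi1, the isomerase that supplies dimethylallyl diphosphate, had signals of 4573 and 6366 in PN56 Klf4CN lenses, against 1665 and 1686 in PN56 WT lenses. The log2 difference was 1.68 ± 0.16 (SE; adjusted p = 8.41e-05), a 3.2-fold rise, and both Klf4CN arrays stood above both WT arrays. Hmgcs1, which makes HMG-CoA, had 7526 and 7276 in PN56 Klf4CN lenses, against 5247 and 5067 in PN56 WT lenses. The 2 arrays of each genotype lay close together, and the log2 difference was 0.52 ± 0.10 (adjusted p = 0.00658).

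Pmvk, the phosphomevalonate kinase, had signals of 1783 and 1700.4 in PN56 Klf4CN lenses, against 1171 and 1075 in PN56 WT lenses, with a log2 difference of 0.63 ± 0.14 (adjusted p = 0.0112). Fdps, which joins isoprene units into farnesyl diphosphate, had 7441 and 10439.5 in PN56 Klf4CN lenses, against 6172 and 4923 in PN56 WT lenses. The groups did not overlap but the Klf4CN arrays were far apart, and the log2 difference was 0.68 ± 0.15 (adjusted p = 0.0124). Ggps1, which lengthens farnesyl to geranylgeranyl diphosphate and so leads away from sterols, was lower, with 998 and 813 in PN56 Klf4CN lenses, against 1525 and 1269 in PN56 WT lenses (log2 difference -0.62 ± 0.17; adjusted p = 0.0335). Mvk, mevalonate kinase, and Mvd, mevalonate diphosphate decarboxylase, overlapped between genotypes, with log2 differences of 0.18 (95% interval -0.50 to 0.87) and 0.19 (-0.27 to 0.65).

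All 3 members that make and close squalene were higher. Sqle, the squalene epoxidase and a rate-limiting step, had signals of 3052 and 2689 in PN56 Klf4CN lenses, against 1476 and 1264 in PN56 WT lenses. Both Klf4CN arrays were above both WT arrays, and the log2 difference was 1.06 ± 0.12 (adjusted p = 0.000267), a 2.08-fold rise. Fdft1, squalene synthase, had 8997 and 10028 in PN56 Klf4CN lenses, against 6785 and 5817 in PN56 WT lenses, with a log2 difference of 0.60 ± 0.11 (adjusted p = 0.00396). Lss, lanosterol synthase, had 849.9 and 773 in PN56 Klf4CN lenses, against 423 and 613 in PN56 WT lenses. Its WT arrays were the more scattered, and the log2 difference was 0.65 ± 0.18 (adjusted p = 0.0317).

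Of the 8 members that turn lanosterol into cholesterol, 5 were higher, 1 was lower and 2 did not pass. Cyp51, the lanosterol demethylase, had 2739.7 and 2664 in PN56 Klf4CN lenses, against 1625 and 1734 in PN56 WT lenses (log2 difference 0.68 ± 0.12; adjusted p = 0.00446). Msmo1 and Nsdhl act in sequence to remove the methyl groups at carbon 4. Msmo1 had 2487 and 2964 in PN56 Klf4CN lenses, against 1662 and 1701 in PN56 WT lenses, a log2 difference of 0.69 ± 0.16 (adjusted p = 0.0152). Nsdhl had 2650.2 and 2582 in PN56 Klf4CN lenses, against 1566 and 1389 in PN56 WT lenses, a log2 difference of 0.82 ± 0.15 (adjusted p = 0.00477). The Klf4CN and WT arrays did not overlap for any of these 3 genes.

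Ebp, the isomerase that moves the ring double bond, had 1080.3 and 1079 in PN56 Klf4CN lenses, against 694 and 693 in PN56 WT lenses, so that arrays of a genotype were nearly equal (log2 difference 0.63 ± 0.16; adjusted p = 0.0254). Sc5d, the sterol C5 desaturase, had 1612 and 1527 in PN56 Klf4CN lenses, against 701 and 951 in PN56 WT lenses (log2 difference 0.93 ± 0.24; adjusted p = 0.0255). Dhcr7, which reduces 7-dehydrocholesterol in the final part of the route, went the other way. It had 961 and 895 in PN56 Klf4CN lenses, against 1916 and 1749 in PN56 WT lenses, a log2 difference of -0.97 ± 0.19 (adjusted p = 0.00606), and its arrays did not overlap between genotypes. Hsd17b7, the 3-ketosteroid reductase that follows Nsdhl, had 961 and 887 in PN56 Klf4CN lenses, against 815 and 477 in PN56 WT lenses. The groups did not overlap, but the WT arrays were far apart and the log2 difference of 0.55 ± 0.25 did not pass the test (adjusted p = 0.167); without PN56 WT replicate 1 it was 0.93 and passed (adjusted p = 0.0410). Tm7sf2, a sterol reductase, overlapped between genotypes, with a log2 difference of -0.04 (95% interval -0.43 to 0.34).

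**Figure D2:**
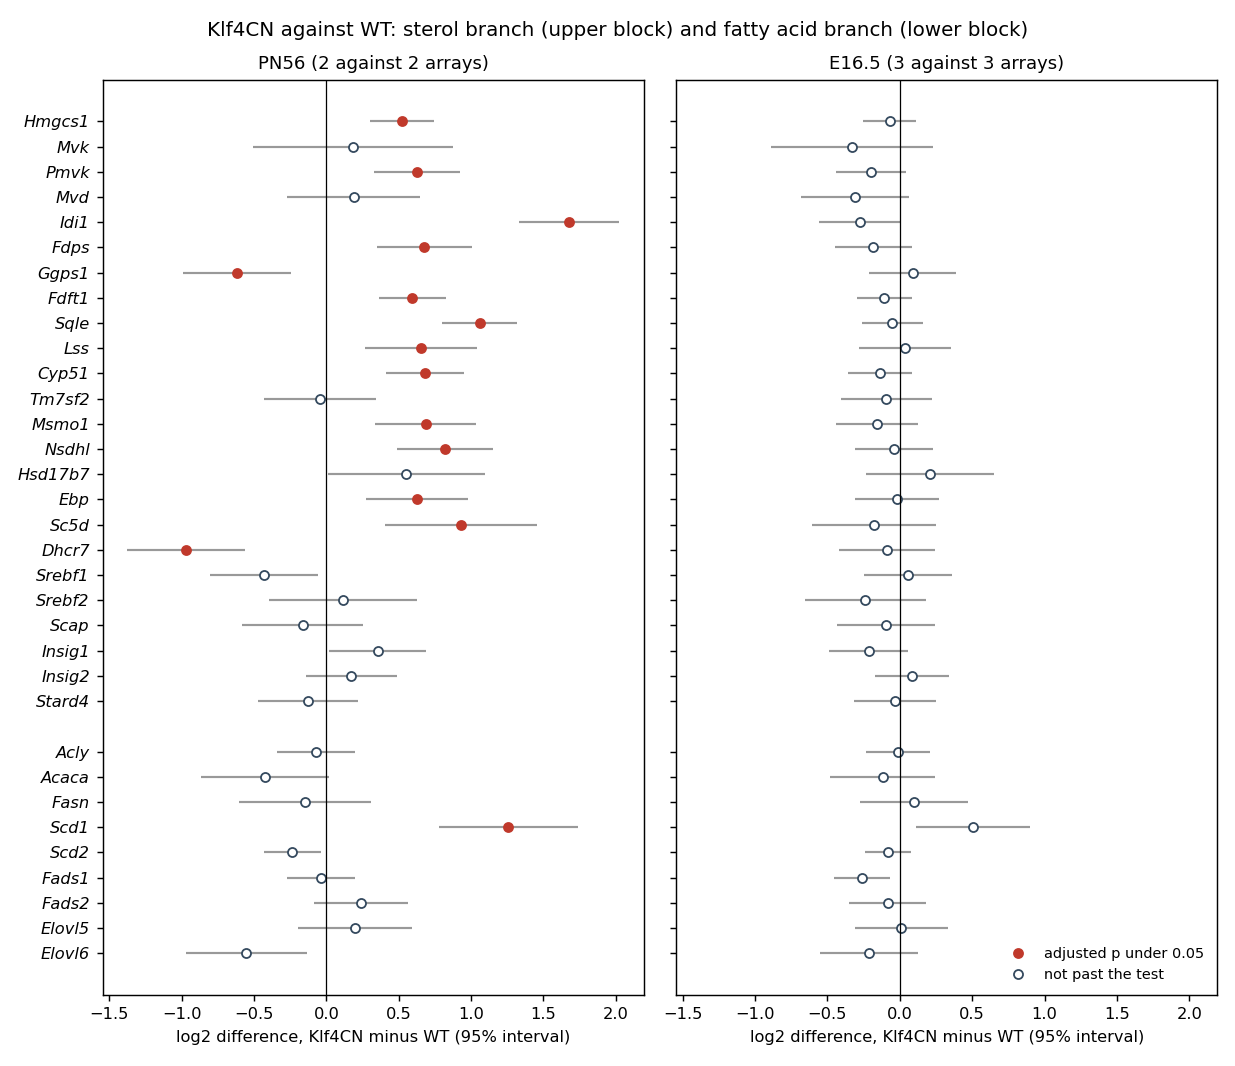
Log2 differences of Klf4CN against WT for the 33 measured members at PN56 (left) and E16.5 (right), with 95% intervals; filled points passed the test. At PN56, 13 members were past the test above 0 and 2 below it (Ggps1 and Dhcr7), and at E16.5 no member was past the test.

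None of the 6 members that sense or carry sterols passed the test with all arrays. Srebf2, which encodes the SREBP that mainly drives sterol genes, had 1026 and 1010.3 in PN56 Klf4CN lenses, against 1164 and 760.1 in PN56 WT lenses. The Klf4CN arrays lay between the WT arrays, and the log2 difference was 0.11 ± 0.23 (95% interval -0.40 to 0.62; adjusted p = 0.796). Srebf1, whose product mainly drives fatty acid genes, had 2244 and 1645 in PN56 Klf4CN lenses, against 2994 and 2255 in PN56 WT lenses. The groups did not overlap, with a log2 difference of -0.43 ± 0.17 that did not pass (adjusted p = 0.120); without PN56 Klf4CN replicate 1 it was -0.65 and passed (adjusted p = 0.0365).

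Scap, the SREBP escort, had 804 and 589.6 in PN56 Klf4CN lenses, against 916 and 651 in PN56 WT lenses, and the groups overlapped (log2 difference -0.16 ± 0.19; adjusted p = 0.629). Insig1, itself a target of SREBP, had 6502 and 7370.1 in PN56 Klf4CN lenses, against 5208 and 5611 in PN56 WT lenses, without overlap (log2 difference 0.36 ± 0.15; adjusted p = 0.15). Insig2 had 3241 and 3627 in PN56 Klf4CN lenses, against 2998 and 3081 in PN56 WT lenses (log2 difference 0.17 ± 0.14; adjusted p = 0.473), while 2 other Insig2 probe sets gave log2 differences of -0.30 and -0.23, also not past the test. Stard4, which carries cholesterol between membranes, averaged 804 ± 32.8 in PN56 Klf4CN lenses and 880 ± 25.7 in PN56 WT lenses (SD, n = 2 each), a log2 difference of -0.13 (95% interval -0.47 to 0.22). These arrays measure transcripts, and SREBP activity is set largely by protein processing that they do not see.

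Most members of the fatty acid branch did not pass the test at PN56. Scd1, the stearoyl-CoA desaturase that makes oleate, was the exception, with 4865 and 4295 in PN56 Klf4CN lenses, against 1793 and 2016 in PN56 WT lenses. Both Klf4CN arrays were above both WT arrays, with a log2 difference of 1.26 ± 0.22 (adjusted p = 0.00377), a 2.39-fold rise. Its relative Scd2, which catalyses the same reaction, averaged 56840 ± 1155 in PN56 Klf4CN lenses and 66860 ± 1977 in PN56 WT lenses (SD, n = 2 each), a log2 difference of -0.23 ± 0.09 (adjusted p = 0.107). Among very bright controls, the 3' probe set of Actb averaged 62490 ± 529 on PN56 Klf4CN arrays and 81660 ± 3544 on PN56 WT arrays. The 3' probe set of the cre spike averaged 52250 ± 1397 on PN56 Klf4CN arrays and 78240 ± 7931 on PN56 WT arrays, without overlap. Whether the bright end of the scale bears on the Scd2 value was not tested. Scd1 (chr19:44394450-44407709) and Scd2 (chr19:44293676-44306864, GRCm38.p6) are neighbours. Other Scd2 probe sets gave log2 differences at PN56 of 0.22 (15922 and 16342 in Klf4CN lenses, against 13763 and 13962 in WT lenses, without overlap) and -0.02, neither past the test, so the sign for Scd2 depends on the probe set.

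Acly, which makes cytosolic acetyl-CoA, Acaca, which commits it to fatty acids, and Fasn, which assembles palmitate, all had log2 differences below 0: -0.07 (95% interval -0.34 to 0.20), -0.42 (-0.86 to 0.02) and -0.15 (-0.60 to 0.31). Elovl6, which lengthens palmitate to stearate, had 826 and 666 in PN56 Klf4CN lenses, against 1146 and 1046 in PN56 WT lenses. The groups did not overlap, and the log2 difference of -0.55 ± 0.19 did not pass (adjusted p = 0.0789). Elovl5, which lengthens polyunsaturated fatty acids, had a log2 difference of 0.20 (95% interval -0.19 to 0.60). The polyunsaturated fatty acid desaturases Fads1 and Fads2 had -0.04 (-0.27 to 0.20) and 0.24 (-0.09 to 0.57).

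**Figure D3:**
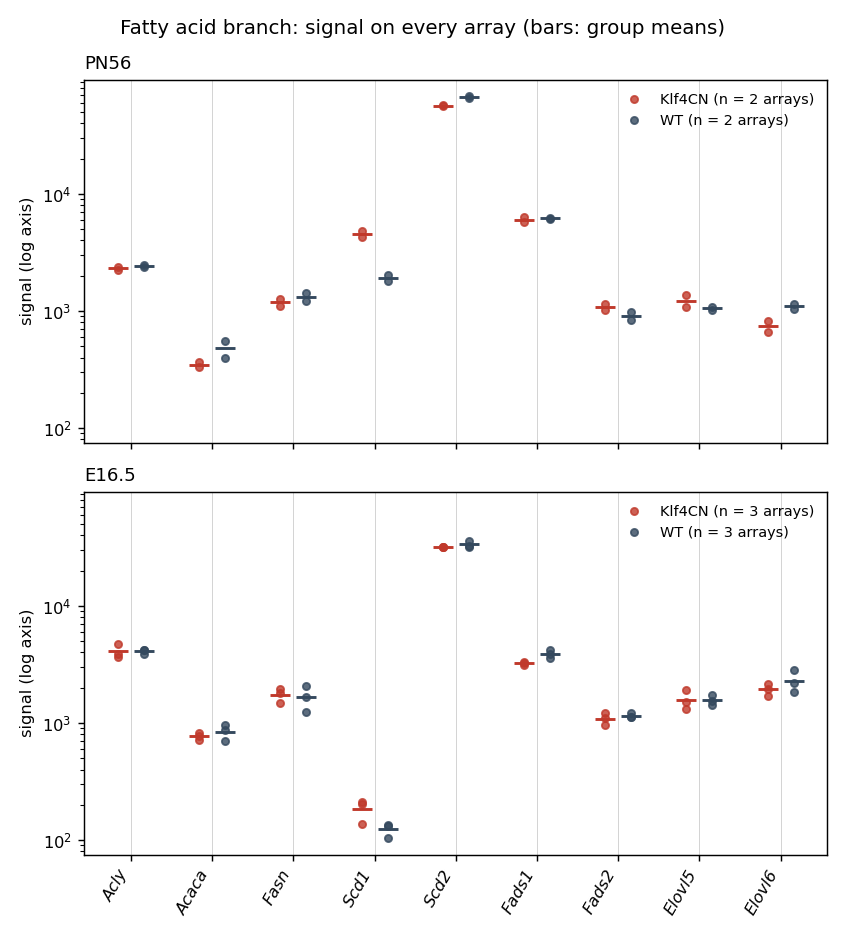
Signal of the 9 fatty acid branch members on every array (log axis), with Klf4CN to the left of WT, PN56 above and E16.5 below; points are arrays and bars are group means. Scd1 stands at 4864.5 and 4294.5 in PN56 Klf4CN lenses, against 1793 and 2016 in PN56 WT lenses, and at 136 to 211 in E16.5 Klf4CN lenses, against 104 to 134 in E16.5 WT lenses.

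The sterol branch can be set beside genes of like signal. The mean signals of its members over the 10 arrays lay between 242.5 and 8921, and of the 8540 tested genes in that range 16.1% were called at PN56, 7.41% higher and 8.68% lower, with a median log2 difference of -0.05. Averaged over its 18 enzymes, the log2 signal of the sterol branch was 10.81 ± 0.03 in PN56 Klf4CN lenses and 10.32 ± 0.09 in PN56 WT lenses (SD, n = 2 each), and 10.39 ± 0.04 in E16.5 Klf4CN lenses and 10.50 ± 0.12 in E16.5 WT lenses (SD, n = 3 each). When each array was centred on its own median signal, the median log2 difference over all tested genes at PN56 moved from -0.06 to 0.07 and the split of all called genes from 817 higher and 940 lower to 919 higher and 358 lower. The sterol branch then had 12 higher and 1 lower member, Ggps1 no longer being past the test, and Scd1 remained the called member of the fatty acid branch.

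The calls differed in how far they rested on single arrays. Idi1, Sqle, Nsdhl, Hmgcs1 and Scd1 passed under all 24 alternative settings, and Fdft1, Cyp51 and Dhcr7 under 23. Not all of these settings put the PN56 difference to a test. Leaving out an E16.5 array does not change the log2 difference at PN56, only its adjusted p. The threshold of 0.1 can only add calls, and testing every probe set by itself still read the brightest one. Without PN56 Klf4CN replicate 2, 7 sterol members were higher and 1 was lower: Fdps had a log2 difference of 0.43 (adjusted p = 0.0859), Lss 0.72 (0.0720), Msmo1 0.56 (0.101), Ebp 0.63 (0.0860), Sc5d 0.97 (0.0846) and Ggps1 -0.47 (0.175). Without PN56 WT replicate 1, 9 were higher, Hsd17b7 being added, and 1 was lower, and Lss (0.39; 0.185), Msmo1 (0.67; 0.07), Ebp (0.63; 0.0805), Sc5d (0.71; 0.151) and Ggps1 (-0.49; 0.170) did not pass. Lss (0.59; 0.104), Ebp (0.63; 0.0628) and Sc5d (0.89; 0.0823) did not pass without PN56 Klf4CN replicate 1, Fdps (0.51; 0.0784) and Ebp (0.63; 0.0661) without PN56 WT replicate 2, and Lss (0.65; 0.0504) without E16.5 Klf4CN replicate 1. Leaving out 1 of the 10 arrays could not change the direction of the 15 called differences, as their PN56 groups did not overlap.

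Other probe sets of the called members gave the same sign in 14 of 17 cases where they were bright enough to be tested. The count is of signs alone, and some of the values lay near 0. A second Sc5d probe set had 554 and 504.6 in PN56 Klf4CN lenses, against 497.7 and 557.5 in PN56 WT lenses, with no separation. Its log2 difference of 0.005 counts as the same sign. The 3 other Ggps1 probe sets gave log2 differences of -0.11, -0.12 and 0.02. A second bright Fdft1 probe set gave 0.68, and a dim one -0.22. For Cyp51 a second bright probe set gave 0.18 and a dim one 0.86, and another Lss probe set gave 0.35. None of these Cyp51 and Lss values passed the test with every probe set tested by itself (adjusted p = 0.451, 0.400 and 0.341). With each gene's probe sets averaged in place of taking the brightest, 7 sterol members were called, and the log2 differences were 0.21 for Fdps, 0.39 for Fdft1, 0.57 for Cyp51, 0.28 for Sc5d, 0.55 for Lss, 0.78 for Msmo1 and -0.21 for Ggps1, none of them past the test. These averages take in probe sets too dim to be tested, such as the second ones of Fdps (mean signal 6.37) and Msmo1 (33.0).

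Cell type markers also differed between the genotypes at PN56, and their part in the results was not tested. The 4 lens epithelium markers (Foxe3, Pax6, Cdh1, Gja1) summed to 15250 to 15700 in Klf4CN lenses, against 25910 to 27770 in WT lenses, and 5 pigment cell markers to 2490 to 2721, against 5574 to 7265. Gja1 made up much of the epithelial sum (mean 6997 in Klf4CN and 16720 in WT lenses). Foxe3 and Pax6 were lower in Klf4CN lenses too, while Cdh1 went the other way (3638 in Klf4CN and 3051 in WT lenses). The 4 photoreceptor markers summed to 10410 and 2981 in Klf4CN lenses, against 4196 to 4541 in WT lenses; without the array at 10410, PN56 Klf4CN replicate 1, 9 sterol members were higher and 3 lower, Srebf1 being the added one. Macrophage markers, 5 in all, summed to 1368 to 1930 in Klf4CN lenses, against 1182 to 1212 in WT lenses. Cd68, Tyrobp and C1qa were higher in Klf4CN lenses. The brightest, Csf1r, averaged 769 in Klf4CN and 856 in WT lenses, and Aif1 28.2 and 28.9. Adipocyte markers, 4 in all, summed to 103.2 to 183 in Klf4CN lenses, against 151.9 to 264.9 in WT lenses, and no marker was listed at 0. Cidec averaged 14.9 in Klf4CN and 82.65 in WT lenses, and Adipoq 43.5 and 56.25. Lep (17.4 and 13.65) and Fabp4 (67.3 and 55.85) went the other way. The 5' probe set of 18S RNA averaged 8353 ± 3751 in PN56 Klf4CN lenses and 1699 ± 1656 in PN56 WT lenses (SD, n = 2 each), and at E16.5 it was 20900 to 22780 in Klf4CN lenses, against 1155 to 2413 in WT lenses. The ratio of the 3' to the 5' probe set of Actb was 1.455 to 1.598 in PN56 Klf4CN lenses, against 1.789 to 1.883 in PN56 WT lenses, and at E16.5 it was 1.329 to 1.367 in Klf4CN lenses, against 1.363 to 1.579 in WT lenses. The 3 markers of retinal neurons and progenitors summed to 524.9 to 756.9 in PN56 Klf4CN lenses, against 808.7 to 1056 in PN56 WT lenses, and at E16.5 they lay the other way, at 1885 to 3730 in Klf4CN lenses, against 557.5 to 1738 in WT lenses. The part of these values in the E16.5 results and in the difference between ages was not tested either.

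Promoter sequence was examined because the sterol members moved largely together. RefSeq promoters of assembly GRCm38.p6, 300 bases each (250 before and 50 after the start), were at hand for 27 of the 34 members, in 35 entries. There were 4 motifs searched on both strands: TCACNCCAC, a form of the sterol regulatory element; CCAAT, bound by the factor NF-Y that works with SREBP; GGGCGG, the GC box of Sp1; and CACCC, the core bound by Kruppel-like factors, which can overlap the sterol element. TCACNCCAC was found in 2.86% of member promoters, 1.24% of all 32851 promoters and 1.12% of those of tested genes. CCAAT was found in 65.7%, 37.4% and 37.4%, GGGCGG in 71.4%, 35.7% and 59.8%, and CACCC in 62.9%, 57.5% and 63.8%. These letters describe the window only, and a match is no evidence of binding.

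The promoters of 3 genes are shown: that of Hmgcs1, the 1 member with a TCACNCCAC match, and those of Idi1 and Cyp51, the called members of smallest p at PN56 among those with a promoter, added after their values were seen. They run 5′ to 3′ on the gene's strand, with matches to the 4 motifs in capitals, CCAAT on the other strand reading ATTGG and GGGCGG reading CCGCCC. The sterol element of Hmgcs1, TCACCCCAC at 137 to 129 bases before the start, holds a CACCC within it. All 3 promoters have both a CCAAT and a GC box match, and neither Idi1 nor Cyp51 has a CACCC match.
Hmgcs1 (chr13:119690101-119690400, plus strand): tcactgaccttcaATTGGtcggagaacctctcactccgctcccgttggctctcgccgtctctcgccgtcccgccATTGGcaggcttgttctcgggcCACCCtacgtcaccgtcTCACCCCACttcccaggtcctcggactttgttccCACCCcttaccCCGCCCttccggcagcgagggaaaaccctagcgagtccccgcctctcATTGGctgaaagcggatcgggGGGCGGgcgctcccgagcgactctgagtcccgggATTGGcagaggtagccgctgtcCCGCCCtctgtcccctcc
Idi1 (chr13:8885356-8885655, plus strand): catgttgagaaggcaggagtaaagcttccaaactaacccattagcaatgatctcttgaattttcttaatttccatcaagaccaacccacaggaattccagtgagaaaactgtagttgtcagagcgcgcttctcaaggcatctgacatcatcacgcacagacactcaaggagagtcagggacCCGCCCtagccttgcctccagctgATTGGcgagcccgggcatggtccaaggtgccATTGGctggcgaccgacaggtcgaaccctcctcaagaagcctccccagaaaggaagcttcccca
Cyp51 (chr5:4104648-4104947, minus strand): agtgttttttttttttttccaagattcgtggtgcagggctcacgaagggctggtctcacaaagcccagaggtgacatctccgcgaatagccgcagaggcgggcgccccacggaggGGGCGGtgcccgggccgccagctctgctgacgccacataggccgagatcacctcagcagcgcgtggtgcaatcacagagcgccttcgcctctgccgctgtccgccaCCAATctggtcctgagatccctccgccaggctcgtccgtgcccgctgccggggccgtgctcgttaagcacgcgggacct

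At E16.5 the same labels are compared in the embryonic lens. No member passed the test: adjusted p ran from 0.9452 (Fads1) to 0.9997, where 0.00744% of all tested genes were called, that is 1 gene (Cdkn1a, named after its value was seen), and 610 genes had an unadjusted p under 0.05. Of the members, 0 sterol and 2 fatty acid ones (Scd1 and Fads1) had an unadjusted p under 0.05, and none was called under the 24 alternative settings. The median log2 difference of the sterol branch was -0.09, with 5 members above 0 and 19 below, against 2.29e-06 over all tested genes. The groups overlapped for all but 2 sterol and 3 fatty acid members, where 11.9% of all tested genes did not overlap.

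The 12 sterol members that were higher at PN56 had log2 differences between -0.27 and 0.03 at E16.5. Idi1 had 4445, 4529 and 4875 in E16.5 Klf4CN lenses, against 6253, 4739.9 and 5853 in E16.5 WT lenses, which overlapped (log2 difference -0.27 ± 0.13; 95% interval -0.56 to 0.01). Sqle had 2757, 2919 and 2609 in E16.5 Klf4CN lenses, against 2805, 2849 and 2928 in E16.5 WT lenses, which overlapped as well (-0.05 ± 0.10; -0.26 to 0.16). Hmgcs1 had 9705, 10804 and 10747 in E16.5 Klf4CN lenses, against 11066, 10084 and 11689 in E16.5 WT lenses (-0.07 ± 0.08; -0.25 to 0.11). Pmvk had 848, 794 and 831 in E16.5 Klf4CN lenses, against 1013, 846 and 994 in E16.5 WT lenses, with the top Klf4CN array just above the lowest WT array (-0.20 ± 0.11; -0.44 to 0.04).

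Fdps had 4158, 4259 and 3973 in E16.5 Klf4CN lenses, against 4818, 4507 and 4753 in E16.5 WT lenses, where all Klf4CN arrays were below all WT arrays (-0.18 ± 0.12; -0.45 to 0.08). Fdft1 had 4347, 4446 and 4493 in E16.5 Klf4CN lenses, against 4997, 4592 and 4722 in E16.5 WT lenses, again without overlap (-0.11 ± 0.09; -0.29 to 0.08). Neither difference passed the test (adjusted p = 0.9997 for both). Cyp51 had 1921, 1804 and 1824 in E16.5 Klf4CN lenses, against 2117, 1787 and 2224 in E16.5 WT lenses. Msmo1 had 2205, 2501 and 2291 in E16.5 Klf4CN lenses, against 2556, 2184 and 3167 in E16.5 WT lenses. Nsdhl had 1675, 1929 and 1839 in E16.5 Klf4CN lenses, against 1893, 1568 and 2188 in E16.5 WT lenses. All 3 overlapped, with log2 differences of -0.14, -0.16 and -0.04.

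For Lss, Ebp, Sc5d, Ggps1 and Dhcr7 the groups overlapped at E16.5. Lss had 960, 887 and 1075 in E16.5 Klf4CN lenses, against 961, 947 and 934 in E16.5 WT lenses. Ebp had 613, 764 and 599.7 in E16.5 Klf4CN lenses, against 644, 732 and 617 in E16.5 WT lenses. Sc5d had 580, 635 and 635 in E16.5 Klf4CN lenses, against 683, 516 and 967 in E16.5 WT lenses, where 1 WT array stood above the others. Ggps1 had 842, 877 and 1114 in E16.5 Klf4CN lenses, against 901, 850.3 and 892 in E16.5 WT lenses. Dhcr7 had 706, 864 and 988 in E16.5 Klf4CN lenses, against 972, 738 and 1017 in E16.5 WT lenses. Their log2 differences lay between -0.18 (Sc5d) and 0.09 (Ggps1).

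The sterol sensing genes did not separate by genotype at E16.5. Srebf2 had 815, 622 and 589 in E16.5 Klf4CN lenses, against 629, 919.5 and 855 in E16.5 WT lenses. Srebf1 had 1149, 1336 and 1227 in E16.5 Klf4CN lenses, against 1108, 1235 and 1222 in E16.5 WT lenses. Scap had 907, 1065 and 1023 in E16.5 Klf4CN lenses, against 1025, 1037 and 1136 in E16.5 WT lenses. Each of these mixes high and low arrays of both genotypes. Insig1 had 2758, 2897 and 3619 in E16.5 Klf4CN lenses, against 3799, 3033 and 3927 in E16.5 WT lenses. Insig2 had 716, 672 and 688 in E16.5 Klf4CN lenses, against 729, 684 and 558 in E16.5 WT lenses. All 5 overlapped between genotypes, with log2 differences from -0.24 (Srebf2) to 0.08 (Insig2).

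In the fatty acid branch Scd1 had the largest difference at E16.5, with 136, 204 and 211 in E16.5 Klf4CN lenses, against 104, 131 and 134 in E16.5 WT lenses. Every Klf4CN array was above every WT array, by a log2 difference of 0.51 ± 0.18 that did not pass (adjusted p = 0.9997). Fads1 had 3118, 3279 and 3328 in E16.5 Klf4CN lenses, against 3907, 3576 and 4207 in E16.5 WT lenses, without overlap and in the other direction (-0.26 ± 0.09; adjusted p = 0.9452). The remaining 7 lay between -0.21 (Elovl6) and 0.10 (Fasn).

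Whether the Klf4CN effect differed between the ages was tested as the PN56 difference minus the E16.5 difference. It was higher at PN56 for 9 of 24 sterol members and lower for none, and for 0 of 9 fatty acid members (1, Scd1, at an unadjusted p under 0.05), where 4.61% of all tested genes were called, 2.61% higher and 2% lower. The 9 were Idi1 (1.95 ± 0.21, adjusted p = 0.000549), Sqle (1.11 ± 0.15, 0.00296), Nsdhl (0.86 ± 0.20, 0.0288), Fdps (0.86 ± 0.19, 0.0288), Msmo1 (0.85 ± 0.21, 0.0379), Pmvk (0.83 ± 0.18, 0.0228), Cyp51 (0.82 ± 0.16, 0.0169), Fdft1 (0.70 ± 0.14, 0.0165) and Hmgcs1 (0.59 ± 0.13, 0.0274). All 9 are enzymes of the route from HMG-CoA to the late sterols. Idi1 and Sqle passed under all 23 alternatives run here, and 7 of the 9 lost the call under at least 1.

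Sc5d had a log2 difference between effects of 1.11 ± 0.31 that did not pass (adjusted p = 0.0665), as did Dhcr7 with -0.88 ± 0.24 (adjusted p = 0.061) and Ggps1 with -0.71 ± 0.22 (adjusted p = 0.093). Lss (0.62; 0.152) and Ebp (0.64; 0.105) did not pass either. For Scd1 the difference between the effects was 0.75 ± 0.29 (95% interval 0.13 to 1.38; adjusted p = 0.16), so that its higher signal was not shown to differ between the ages. The sensing genes gave 0.35 for Srebf2, -0.49 for Srebf1, -0.07 for Scap, 0.57 for Insig1 and 0.09 for Insig2, none past the test.

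**Figure D4:**
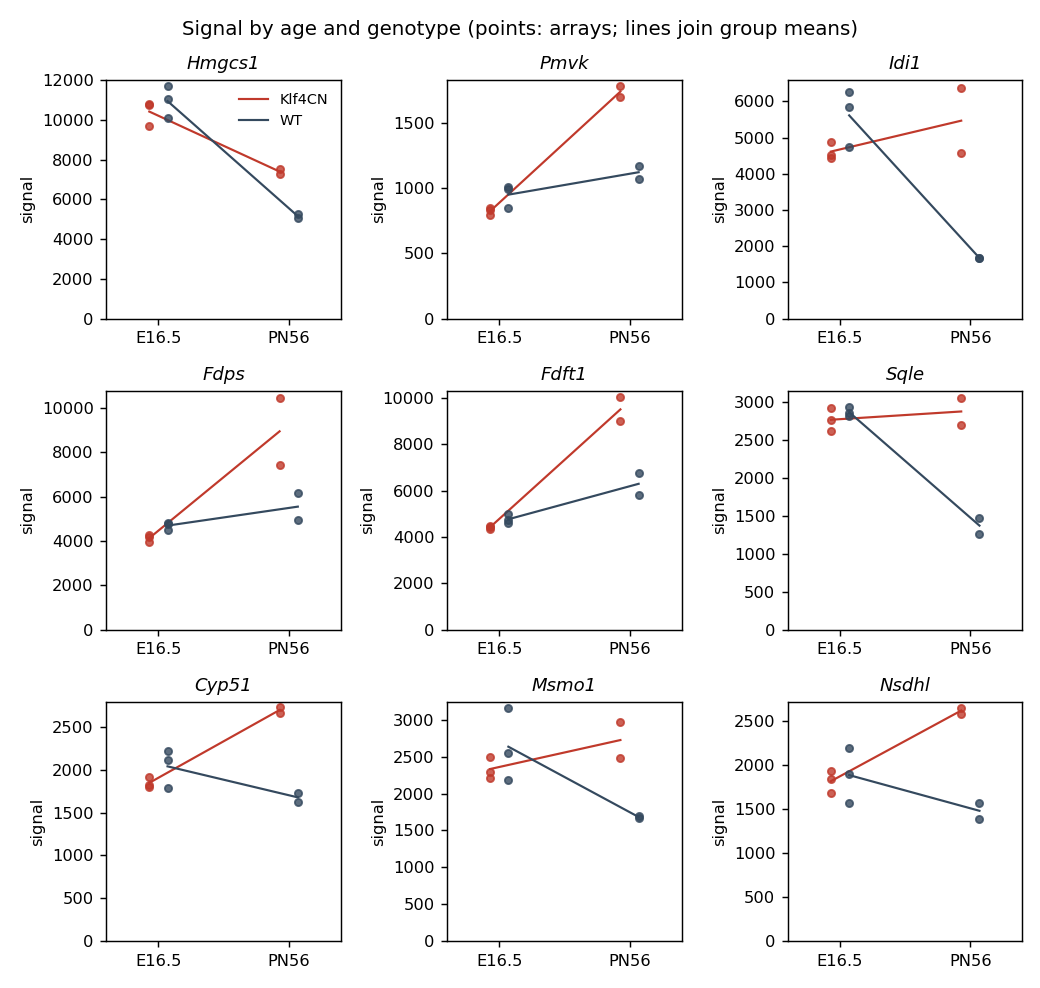
Signal of the 9 members whose Klf4CN effect differed between the ages, at E16.5 and PN56; points are arrays, lines join group means, and every axis starts at 0. For Idi1 and Sqle the Klf4CN lenses are at about the same level at both ages while the WT lenses are lower at PN56.

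The same arrays show how the members differ with age. These comparisons share their PN56 and E16.5 arrays with those above, and age and preparation cannot be told apart: the dap spike averaged 6.55 in PN56 Klf4CN and 12.85 in PN56 WT lenses, against 3576 in E16.5 Klf4CN and 3655 in E16.5 WT lenses, and the number of animals pooled differed too. In Klf4CN lenses 12 sterol members were higher at PN56 than at E16.5 and 2 were lower, where 53.1% of all tested genes were called (22.3% higher, 30.8% lower). In WT lenses 8 were higher and 7 lower, where 56.7% were called (25.8% higher, 30.9% lower). Centring each array on its median moved the median over all tested genes from -0.10 to -0.44 in Klf4CN lenses and from -0.04 to -0.55 in WT lenses. The arrays of the ages did not overlap for 18 of 24 sterol members in Klf4CN lenses, where that held for 70.5% of all tested genes, and for 20 in WT lenses, where it held for 71.1%. After the centring the sterol split was 7 higher and 5 lower in Klf4CN lenses and 3 higher and 11 lower in WT lenses.

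Idi1 had an age difference of 0.23 ± 0.15 in Klf4CN lenses (adjusted p = 0.212) and -1.73 ± 0.15 in WT lenses (adjusted p = 9.79e-07), on the log2 scale. Sqle had 0.05 ± 0.11 in Klf4CN lenses (0.694) and -1.06 ± 0.11 in WT lenses (5.05e-06). Both were lower at PN56 in WT lenses, also under all 24 alternatives, and did not pass in Klf4CN lenses, where Idi1 had 0.46 (adjusted p = 0.0236) and passed without PN56 Klf4CN replicate 1. Hmgcs1 was lower at PN56 in both, by -0.49 ± 0.09 in Klf4CN lenses (0.000761) and -1.08 ± 0.09 in WT lenses (1.17e-06), and the Klf4CN value turned to 0.16 with the mean of its probe sets. A less bright Hmgcs1 probe set went the other way, with 1.42 in Klf4CN and 0.81 in WT lenses. It passed with every probe set tested by itself (adjusted p = 4.91e-05 and 0.003). The remaining bright ones had -0.14 and -0.48 in Klf4CN lenses and -0.86 and -1.11 in WT lenses. Mvd (-0.31 in Klf4CN and -0.81 in WT lenses), Lss (-0.26 and -0.87) and Msmo1 (0.22 and -0.63) were lower at PN56 in WT lenses and did not pass in Klf4CN lenses; with the mean of their probe sets Lss and Msmo1 had -0.29 and -0.17 in WT lenses and did not pass, and after median centring Mvd had -0.65 in Klf4CN lenses and passed (adjusted p = 0.0158). Dhcr7 had an age difference of 0.13 ± 0.17 in Klf4CN lenses (0.538), not past the test, and was higher at PN56 in WT lenses (1.01 ± 0.17; adjusted p = 0.000306). Fdps, Pmvk and Sc5d were higher at PN56 in Klf4CN lenses, by 1.09, 1.06 and 1.33, with 0.23, 0.24 and 0.22 in WT lenses, not past the test. With the mean of its probe sets Fdps had 0.53 in Klf4CN lenses and did not pass (adjusted p = 0.0641), and after quantile normalization Pmvk had 0.31 in WT lenses and passed (adjusted p = 0.0498).

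Some members were higher at PN56 in both genotypes. Insig2 had signals of 3241 and 3627 in PN56 Klf4CN lenses, against 716, 672 and 688 in E16.5 Klf4CN lenses, a 4.87-fold difference, and 4.57-fold in WT lenses (adjusted p = 5.00e-08 and 5.57e-08). Its other 2 probe sets gave smaller log2 differences, 0.82 and 1.06 in Klf4CN lenses and 1.06 and 1.13 in WT lenses. Scd1 was 23.3-fold higher in Klf4CN lenses and 13.9-fold higher in WT lenses (adjusted p = 7.67e-09 and 2.12e-08), the widest age difference of the 33 among the probe sets used. A dimmer Scd2 probe set had age differences of 4.07 in Klf4CN and 4.26 in WT lenses on the log2 scale, where the Scd2 probe set used, among the brightest of the arrays, had 0.85 in Klf4CN lenses. Srebf1 (0.63 in Klf4CN and 1.12 in WT lenses), Insig1 (1.17 and 0.60), Hsd17b7 (1.43 and 1.08) and Fads1 (0.89 and 0.66) were higher as well; after median centring Srebf1 in Klf4CN lenses (0.29) and Insig1 (0.08), Fads1 (0.15) and Hsd17b7 (0.57) in WT lenses did not pass. Without PN56 WT replicate 1 Hsd17b7 had 0.71 in WT lenses, and without PN56 Klf4CN replicate 1 Srebf1 had 0.41 in Klf4CN lenses (adjusted p = 0.0712). Acly (-0.81 and -0.75), Acaca (-1.11 and -0.81) and Elovl6 (-1.36 and -1.02) were lower at PN56 in both; with the mean of their probe sets Acaca had -0.34 in Klf4CN lenses, not past the test, and turned to 0.33 in WT lenses, and Acly had -0.11 in Klf4CN and -0.34 in WT lenses, not past the test. The fatty acid branch had 3 higher and 4 lower members in each genotype, and 3 higher and 5 lower in Klf4CN and 2 higher and 6 lower in WT lenses after median centring.

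Lists of neighbouring lipid genes, also chosen with earlier results known, were set beside the sterol branch at PN56. Over all tested genes 13.1% were called at PN56, 6.08% higher and 6.99% lower. No member passed among 12 tested genes of cholesterol transport and efflux (median log2 difference 0.16), 10 of the isoprenoid branches (-0.09) and 13 of glycerides and lipid droplets (-0.03). The genes of smallest p in these were Vldlr, a lipoprotein receptor (0.37 ± 0.15; with the mean of its probe sets 0.81, adjusted p = 0.0182, past the test), Pdss2, of the ubiquinone side chain (-0.90 ± 0.28; adjusted p = 0.0504; without PN56 Klf4CN replicate 1 -1.35, 0.00679, past the test), and Lpin2, a phosphatidate phosphatase (-0.35 ± 0.16). Of 11 sphingolipid genes 1 was lower, the ceramide synthase Cers6 (-0.81 ± 0.24; adjusted p = 0.0459), which lost the call when any of 8 arrays was left out, any of the 4 at PN56 among them (adjusted p up to 0.168).

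Fatty acid oxidation genes included 4 lower and 0 higher of 16 (median -0.31). Cpt2, which passes fatty acids into the mitochondrial matrix as CoA esters, had 3050.2 and 2841 in PN56 Klf4CN lenses, against 7685 and 6617 in PN56 WT lenses (-1.27 ± 0.11; adjusted p = 5.10e-05). Decr1, needed to oxidise unsaturated fatty acids, had 1256 and 1068, against 2457 and 2285 (-1.02 ± 0.13; adjusted p = 0.000567). The trifunctional protein subunit genes Hadhb (-0.71) and Hadha (-0.59) were lower too. With the mean of their probe sets Cpt2 had -0.39 and Hadhb -0.02, neither past the test.

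Of 17 genes listed with the activation and elongation of fatty acids, 2 were higher and 3 lower (median -0.07). The acyl-CoA synthetase Acsl5 (0.81 ± 0.17; adjusted p = 0.0108) and the mitochondrial citrate carrier Slc25a1 (0.86 ± 0.19; 0.0113) were higher. The elongation genes Elovl1 (-0.86 ± 0.14; 0.00213), Hacd3 (-0.69 ± 0.12; 0.00346) and Tecr (-0.43 ± 0.10; 0.0184) were lower. Without PN56 Klf4CN replicate 2 Acsl5 (0.69; 0.0684) and Slc25a1 (0.83; 0.0588) did not pass, and Slc25a1 had 0.57 (0.0644) without PN56 WT replicate 2. Tecr had -0.33 (0.0793) without PN56 Klf4CN replicate 1 and -0.37 (0.0980) without PN56 WT replicate 1. Slc25a1 and Tecr, like Hadha, were named after their values were seen. Of 6 genes listed with the supply of NADPH, the reductant of both branches, Tkt (-0.50) and Pgd (-0.57) were lower, and both lost the call after median centring, as did Tecr (-0.30) and Hadha (-0.46). Tkt encodes transketolase, which makes no NADPH itself. Its signal lay at the bright end of the scale (59050 ± 2092 in PN56 Klf4CN and 83720 ± 4058 in PN56 WT lenses), whose part was not tested. Without PN56 WT replicate 1 Pgd had -0.32 (adjusted p = 0.217), without PN56 Klf4CN replicate 2 -0.45 (0.171) and without E16.5 Klf4CN replicate 1 -0.57 (0.0524).

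**Figure D5:**
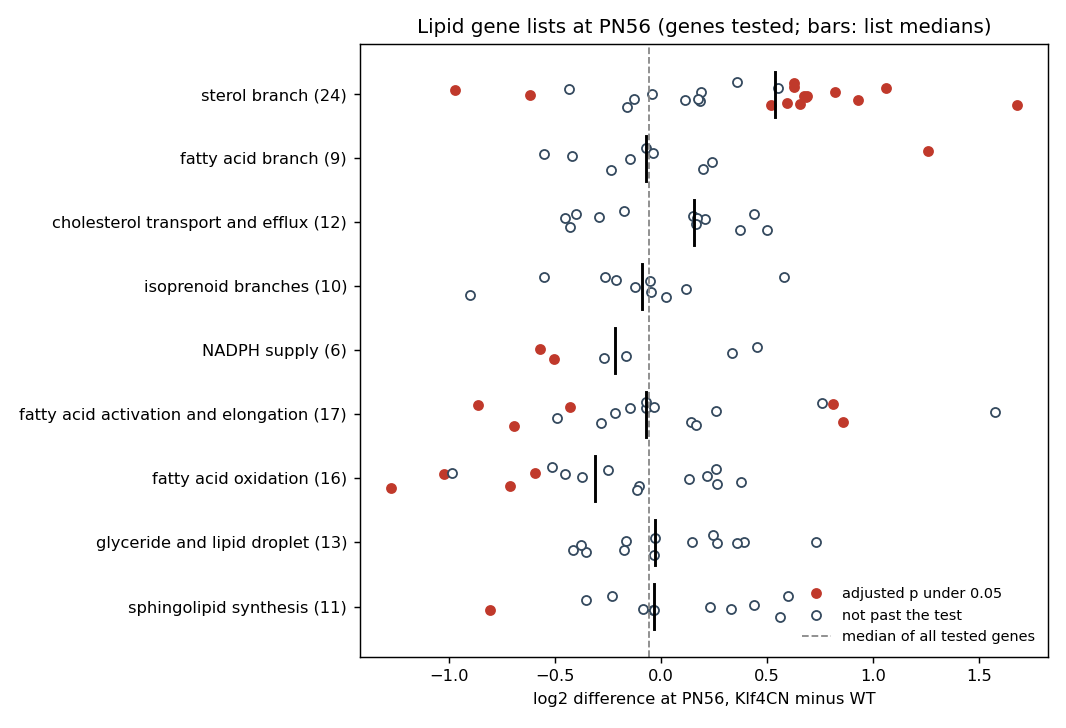
Log2 differences at PN56, Klf4CN minus WT, of the sterol and fatty acid branches and of 7 neighbouring lipid gene lists (number of tested genes in brackets); points are genes, filled where past the test, bars are list medians and the dashed line is the median of all tested genes. The sterol branch has its median at 0.54, and the 7 neighbouring lists have theirs between -0.31 and 0.16.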

How the data were processed

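Per the labels, RNA from whole mouse lenses was labelled with biotin through the Affymetrix IVT kit, and 10 arrays were used. The deposited values are linear intensities, 1 signal per probe set, made with GCOS 1.4 per the submitters' processing notes; no further upstream step is given by the sources here. On each array the mean after trimming 2% at each end was 500, so the authors' values were scaled array by array.

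Gene symbols came from the platform annotation. Of 34945 single-symbol probe sets, 34741 were matched to RefSeq names (GRCm38.p6), and 0 had their symbol changed. The brightest single-symbol probe set stood for a gene. Genes with a mean signal at or above the 40th percentile (54.06) were tested as log2(signal + 16) in 1 limma fit (3.58.1, R 4.3.3) with 4 group means over 10 arrays, eBayes with intensity trend, two-sided, with Benjamini-Hochberg adjustment over 13444 genes. SE and 95% intervals come from that fit. The fit was tested on simulated data, and at PN56 group sizes it missed most of the smaller changes put in. A gene that did not pass may still differ. The number of arrays limits the precision.

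The members, the neighbouring lists and the tests were chosen with earlier results of these data known. All 34 members are named. Per-array values are given for members past a Klf4CN test, for the sterol sensing genes and for a few others. The genes named from each neighbouring list are of smallest p or past the test, and only Cpt2 and Decr1 have per-array values. Replicates are independent preparations per the labels. Their numbers recur in each group. Deviations of same-numbered arrays correlated at -0.02 to 0.27 over 13 pairs, and those of other arrays at -0.28 to 0.06 over 24. As deviations were taken from group means, each range is partly fixed by the other, and the pairs are not independent. Within E16.5 the same-numbered pairs had 0.27, 0.24 and 0.05. The numbers were not taken as pairs in the main fit, and a pairing at E16.5 is not excluded. The 24 alternatives covered scaling, offset, filter, choice of probe set, variance model, samples in the fit, a replicate block, left-out arrays and threshold.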

Additional observations from a re-analysis of the deposited data

Results flagged for a closer look

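For 9 sterol members the Klf4CN effect at PN56 was larger than that at E16.5 by a test of the difference itself (limma, adjusted over 13444 genes), and no explanation was weighed. The log2 differences between the effects were 1.95 for Idi1, 1.11 for Sqle, 0.86 for Nsdhl, 0.86 for Fdps, 0.85 for Msmo1, 0.83 for Pmvk, 0.82 for Cyp51, 0.70 for Fdft1 and 0.59 for Hmgcs1. Leaving out 1 array at a time, Idi1 lay between 1.71 and 2.19 (adjusted p up to 0.00374), Sqle between 1.001 and 1.22 (up to 0.0119) and Fdft1 between 0.59 and 0.81 (up to 0.0494), and these 3 passed in all 10 cases.

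Cyp51 lost the call in 1 of 10 cases, without PN56 WT replicate 1 (0.77, adjusted p = 0.0513). Pmvk lost it in 4 (0.76 to 0.91 over all cases, adjusted p up to 0.0569), Hmgcs1 in 7 (0.54 to 0.65, up to 0.07), Nsdhl in 8 (0.75 to 0.99, up to 0.0718), Fdps in 8 (0.62 to 1.10, up to 0.0789) and Msmo1 in 8 (0.71 to 0.97, up to 0.121). No value changed sign in these cases. Each genotype had 2 arrays at PN56 and 3 at E16.5.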

How the results depend on the processing

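Among the 15 members called at PN56, 5 kept the call under all 24 alternatives, and among the 9 called for the difference between ages 2 did so under all 23. The threshold of 0.1 can only add calls, and arrays left out at E16.5 leave the PN56 log2 differences as they were. At PN56 the 14 sterol calls became 7 with each gene's probe sets averaged, 9 without the intensity trend, 7 with array weights, 9 with the compared groups alone and 7 at adjusted p under 0.01, and 8 to 14 with 1 array left out; the 1 fatty acid call became 2, with Elovl6, at adjusted p under 0.1, and 1 to 2 with 1 array left out. The replicate block gave 14 sterol and 2 fatty acid calls at PN56 (Elovl6 at adjusted p = 0.0213), 9 sterol calls for the difference, and 1685 calls over all genes. Over all genes the 1757 calls at PN56 became 1038, 634, 773 (probe set mean, array weights, compared groups), 668 at 0.01 and 2689 at 0.1, and 1053 to 1910 with 1 array left out. The 1 call at E16.5 became 3 after quantile normalization, 8 with array weights, 7 at 0.1, and 0 with the probe set mean, without the trend, with the compared groups alone, with the block and at 0.01, and 0 to 3 with 1 array left out. The 620 calls for the difference became 291, 200, 320, 107 and 1183 (probe set mean, no trend, array weights, 0.01 and 0.1), and 273 to 939 with 1 array left out; its 9 sterol calls became 4, 2, 5 and 2 (in that order, to 0.01), and 4 to 9 with 1 array left out. Testing every probe set by itself, which raises the number of features, gave 11739 calls with age in Klf4CN lenses, against 7140, and 12551 in WT lenses, against 7627; the 7 fatty acid calls with age in WT lenses became 4 with the probe set mean.

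Values that reversed with age were, in Klf4CN lenses, Hmgcs1 (0.16), Ggps1 (0.57), Srebf2 (-0.0853), Scap (0.94) and Fads2 (0.68) with the mean of probe sets, and Scd2 (-0.22) after quantile normalization. In WT lenses they were Scap (0.64) and Acaca (0.33) with the mean of probe sets, Fdft1 (-0.12), Ebp (-0.45) and Stard4 (-0.14) after median centring and Scd2 (-0.0202) after quantile normalization. Median centring split the calls over all genes into 395 higher and 81 lower for the difference, against 351 and 269, into 1745 and 5719 with age in Klf4CN lenses, against 3003 and 4137, and into 1683 and 6404 in WT lenses, against 3474 and 4153. The cause was not tested for any of these. No detection call sets a floor for dim signals, and 2 arrays per genotype at PN56 limit the precision.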
